A study of Mus musculus with 78 samples.

Results

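Livers of 3 female mice given Protandim for 2 months were compared with livers of 3 control females across all expressed genes. These are 6 of the 78 RNA-seq libraries of a series on mouse liver under lifespan-extending interventions, and they were taken by their labels alone, without any measured value. Of 43629 genes in the count table, 14816 passed the filter on low counts and were tested. The Protandim females were UM-HET3 mice, a genetically heterogeneous stock bred from several inbred strains, and were 6 months old when sacrificed; their diet held Protandim at 1200 ppm until then. The control females were littermate UM-HET3 mice of the same age on the same Purina 5LG6 chow without the supplement. The labels name no engineered allele in either group and count 3 biological replicates in each. For comparison the text also uses Protandim males and control males of this stock, age and diet, and females of the same age fed acarbose (1000 ppm), rapamycin (42 ppm) or 17-alpha-estradiol (14.4 ppm), or calorie restricted by 40%, each for 2 months. The sources used here do not give the time of day of collection.

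Protandim is a supplement made of plant extracts that is sold as an activator of NRF2, the transcription factor encoded by Nfe2l2. In unstressed cells NRF2 is held by KEAP1, handed to a CUL3 ubiquitin ligase and degraded; when oxidants or electrophiles modify KEAP1, NRF2 accumulates, pairs with a small MAF protein and binds antioxidant response elements near genes of glutathione synthesis, thioredoxin recycling and detoxification. Liver is a main site of this response, with Nqo1, the glutathione S-transferases and the glutamate-cysteine ligase subunits Gclc and Gclm among its best known targets. Liver also runs a strong circadian clock, in which CLOCK and its partner BMAL1 (Arntl) bind E-boxes of the Per, Cry, Dbp and Ciart genes.

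The 3 Protandim libraries held 37778510, 30145945 and 27816548 assigned counts, and the 3 control libraries held 31973353, 26304440 and 30605080. Hepatocyte genes such as Alb, Apoa1 and Ttr were abundant in all 6 libraries, with a summed level of 116710 to 141351 CPM (counts scaled to the library total) over 16 hepatocyte genes in Protandim females and of 134653 to 162486 CPM in control females. One library stood apart by RNA of another tissue. Over 36 genes of the exocrine pancreas, Protandim female 3 had 2311 counts, against 246 and 392 in Protandim females 1 and 2 and 128, 138 and 279 in the controls. The digestive enzyme gene Ctrb1 had 0, 1 and 396 counts in Protandim females 1, 2 and 3, and 0 in every control. The pancreatic lipase gene Pnlip had 142 counts in Protandim female 3 and 0 in the other 5 libraries. Over 8 genes of the pancreatic islets, that library had 60 counts and each of the other 5 had 0. Of the exocrine and islet genes together, 24 had counts in that library and 0 in the other 5. Cela1, an elastase gene, made up most of the small totals elsewhere, with 235, 381 and 446 counts in Protandim females and 112, 129 and 259 in controls. As a summed level the 36 genes ranged from 6.57 to 83.8 CPM in Protandim females and from 3.93 to 9.87 CPM in controls. Only 4 of them passed the filter, and 0 were called changed. Marker genes of kidney and skeletal muscle each summed to at most about 1 CPM in these 6 libraries.

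A second feature, described further on with its values, sets Protandim females 2 and 3 apart from Protandim female 1 and from all controls. Among the 36 libraries of 6 months, transcripts of these 2 leaned most towards genes of high GC content and short length. On GC content calorie-restricted female 2 was close behind them. Results were therefore also computed after an offset that removes each library's trend on length and GC content. They were also computed without each Protandim and control female in turn. Apart from the 9 genes described first, no gene named below passed with that offset, and none passed without Protandim female 2.

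In the fit of all 36 libraries of 6 months (12 groups of 3), 793 genes, or 5.35% of those tested, differed between Protandim and control females at a Benjamini-Hochberg adjusted p under 0.05 by edgeR's quasi-likelihood test. Of these, 408 genes (2.75%) were higher and 385 genes (2.60%) lower in Protandim females. An unadjusted p under 0.05 was reached by 3361 genes (22.7%), and the 3 Protandim and 3 control libraries did not overlap for 3322 genes (22.4%). These counts depended on single libraries. Without Protandim female 2, 0 genes passed by the same test, 2353 had an unadjusted p under 0.05, and DESeq2 was not run on that subset; with all libraries DESeq2 called 1561. Without Protandim female 3, 22 genes passed, and without Protandim female 1 the count was 2127. Leaving out control female 1 gave 8 genes and leaving out control female 2 gave 33, while leaving out control female 3 gave 945. With the length and GC offset 10 genes passed (0.0675%), 9 of them among the 793. By sign alone, 790 of the 793 genes kept their sign with the offset. All 793 did in each of the 3 fits without 1 Protandim library. These genes were chosen by passing in the same libraries, and 783 had all 3 Protandim libraries on one side of the control mean. Their signs were thus nearly fixed beforehand and cannot show how stable the calls are.

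**Figure D1:**
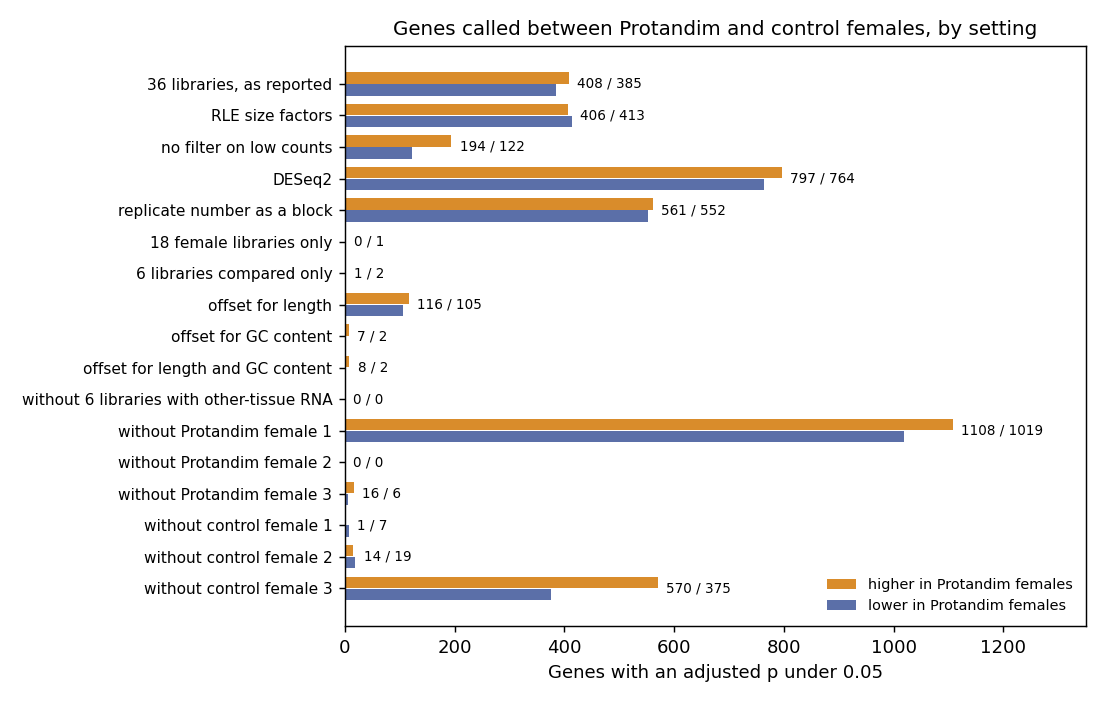
Number of genes with an adjusted p under 0.05 between Protandim and control females (horizontal axis) under each setting (vertical axis), with genes higher in Protandim females as the upper bar of each pair and lower ones as the lower bar. The reported fit gives 408 higher and 385 lower genes, and the fits without Protandim female 2 or without the 6 libraries that hold RNA of another tissue give 0 in both directions.

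The 9 genes that passed both with and without the offset come first. Values after a gene's name below are log2 differences of Protandim minus control females ± SE by edgeR, each over n = 3 Protandim and 3 control libraries, and adjusted p-values are Benjamini-Hochberg values over all 14816 genes. Gnas, which encodes the stimulatory G protein alpha subunit and lies at chr2:174284320-174346744 (GRCm38, plus strand), had 31.2, 48.9 and 59.6 CPM in Protandim females and 18.9, 22.3 and 24.2 CPM in controls. The groups did not overlap, and the difference was 1.09 ± 0.17 (adjusted p = 0.00674; 0.94 with the offset, adjusted p = 0.0317). It passed in 15 of the 23 alternative settings, the most among the named genes. Aqp11, an aquaporin gene at chr7:97724006-97738289 (minus strand), had 37.9, 33.0 and 31.8 CPM in Protandim females, against 16.7, 19.2 and 18.5 CPM in controls. Here Protandim female 1 was the highest of the 6 libraries, and the difference was 0.92 ± 0.17 (adjusted p = 0.00697), or 1.10 with the offset.

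Thrsp, the thyroid hormone responsive gene that promotes fatty acid synthesis (chr7:97412938-97417730, minus strand), had a wider gap. It had 28.6, 136 and 61.0 CPM in Protandim females and 3.66, 6.05 and 10.2 CPM in control females. Every Protandim library lay above every control, with a difference of 3.50 ± 0.64 (adjusted p = 0.00764) and 3.33 with the offset (adjusted p = 0.0317). The other genes that rose with and without the offset were Bri3 (1.06 ± 0.18), N4bp2l1 (0.96 ± 0.18), Fdx1, which encodes the mitochondrial electron carrier ferredoxin (0.90 ± 0.18), and Gng5, a G protein gamma subunit gene (0.52 ± 0.11). Fdx1 had 74.8, 136 and 118 CPM in Protandim females and 49.7, 59.1 and 67.5 CPM in controls, without overlap.

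Rnf125 and Vcl fell with and without the offset. Rnf125, an E3 ubiquitin ligase gene on chromosome 18, had 27.4, 18.3 and 22.8 CPM in Protandim females and 52.6, 52.7 and 50.7 CPM in controls (-1.19 ± 0.24, adjusted p = 0.0111; -1.20 with the offset, adjusted p = 0.0328). The control libraries lay close together, and every Protandim library was below them. Vcl, which encodes the focal adhesion protein vinculin, had 11.9, 10.7 and 9.24 CPM in Protandim females and 21.0, 22.1 and 13.7 CPM in controls (-0.83 ± 0.16, adjusted p = 0.00783). Without Protandim female 2 all 9 of these genes lost the call.

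In the NRF2 pathway, which Protandim is sold to activate, 1 of 11 regulators and 2 of 59 tested targets passed. Among 11 regulators, all tested, 0 rose and 1 fell, or 9.09% beside 5.35% of all genes. Of the 11, 8 were positive. By edgeR 5 had an unadjusted p under 0.05, beside 22.7% of all genes, and DESeq2 called 1 higher and 1 lower. Nfe2l2 itself had 51.1, 35.5 and 43.4 CPM in Protandim females and 38, 42.2 and 47.2 CPM in controls, a difference of 0.03 ± 0.16 (adjusted p = 0.945). Keap1, the NRF2 sensor and adaptor, had 81.6, 86.5 and 83.1 CPM in Protandim females and 72.7, 69.9 and 82.8 CPM in controls (0.16 ± 0.10, adjusted p = 0.401). The groups overlapped for both. Cul3, the scaffold of the ligase that marks NRF2 for degradation, had 46.7, 46.4 and 59.8 CPM in Protandim females and 62.9, 66.4 and 64.4 CPM in controls and fell (-0.34 ± 0.10, adjusted p = 0.0358). It passed in 5 of the 23 alternatives, and with the offset its difference was -0.06. Of the small MAF partners, Mafk missed the threshold narrowly (0.40 ± 0.12, adjusted p = 0.0503), Maff had 1.0 ± 0.41 (adjusted p = 0.144) and Mafg 0.34 ± 0.13 (adjusted p = 0.107). The competing repressor Bach1 had -0.23 ± 0.16 (adjusted p = 0.437), and Bach2 had 0.68 ± 0.29 (adjusted p = 0.159).

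Of 63 NRF2 target genes, 59 were tested, 1 rose and 1 fell, or 3.39% of those tested beside 5.35% of all genes. Their median log2 difference was 0.14, beside 0.00 over all genes. In the glutathione and thioredoxin group 0 of 16 tested genes passed, where edgeR gave 3 an unadjusted p under 0.05 and DESeq2 called 0. Gclc, the catalytic subunit of the enzyme that limits glutathione synthesis, had 215, 252 and 317 CPM in Protandim females and 247, 318 and 380 CPM in controls (-0.27 ± 0.22, adjusted p = 0.513). Its modifier Gclm had 174, 190 and 203 CPM in Protandim females and 140, 165 and 167 CPM in controls, without overlap, but at a difference of 0.26 ± 0.16 (adjusted p = 0.355). Txnrd1, thioredoxin reductase, had 70.9, 75.5 and 71.9 CPM in Protandim females and 82.6, 84.8 and 77.6 CPM in controls (-0.17 ± 0.13, adjusted p = 0.504). So the pair of textbook targets whose libraries did not overlap lay in opposite directions. Srxn1, which repairs oxidised peroxiredoxins, had -0.38 ± 0.18 (adjusted p = 0.202).

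In the detoxification group 33 of 35 genes were tested. Nqo1, the quinone reductase used as the standard readout of NRF2, had 8.41, 8.01 and 6.02 CPM in Protandim females and 8.97, 6.50 and 8.84 CPM in controls (-0.12 ± 0.23, adjusted p = 0.824), and it passed in 0 of the 23 alternatives. Akr7a5, an aldo-keto reductase gene, rose: it had 166, 264 and 276 CPM in Protandim females and 138, 150 and 164 CPM in controls (0.64 ± 0.17, adjusted p = 0.031), and 0.24 with the offset (adjusted p = 0.538). Ugt2b35, a glucuronosyltransferase gene, fell, with 35.8, 29.9 and 27.7 CPM in Protandim females and 47.8, 59.1 and 49.7 CPM in controls (-0.74 ± 0.15, adjusted p = 0.0111), and -0.54 with the offset (adjusted p = 0.154).

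The glutathione S-transferases of the alpha and mu classes, chosen as a group after their values were seen, all lay on one side. Each of the 11 tested Gsta and Gstm genes had a positive difference, between 0.23 and 1.63, and 0 of the 11 passed. Gstm3 had 6.46, 12.9 and 16 CPM in Protandim females and 4.36, 2.26 and 4.70 CPM in controls (1.63 ± 0.63, adjusted p = 0.115). Gsta3 had 607, 1038 and 1002 CPM in Protandim females and 452, 605 and 622 CPM in controls (0.66 ± 0.25, adjusted p = 0.104). With RLE scaling or the offset all 11 were positive, and without Protandim female 3 it was 10 of 11. With the offset and without control female 1 it was 8, and with the offset and without control female 2 it was 9. DESeq2 called 1 of them. These paralogs share sequence, so their counts are uncertain where reads could belong to more than 1 of them. In the heme and iron group 0 of 10 tested genes passed and 0 reached an unadjusted p under 0.05 by edgeR, with 0 called by DESeq2; Hmox1, heme oxygenase, had 0.38 ± 0.29 (adjusted p = 0.471).

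Antioxidant genes outside the NRF2 lists lay mostly above the controls. Of 17 tested, 15 were positive, the median difference was 0.32 (0.20 with the offset), 0 passed by edgeR, 8 reached p under 0.05 before adjustment, and DESeq2 called 4. Sod3, the extracellular superoxide dismutase, had 53.9, 53.4 and 59.9 CPM in Protandim females and 34.1, 38.5 and 31.9 CPM in controls, without overlap (0.68 ± 0.23, adjusted p = 0.0709). Txn2, mitochondrial thioredoxin, had 187, 220 and 226 CPM in Protandim females and 151, 164 and 165 CPM in controls, also without overlap (0.40 ± 0.13, adjusted p = 0.0682). Gpx1, the main liver glutathione peroxidase, had 1598, 2386 and 2194 CPM in Protandim females and 1320, 1170 and 1671 CPM in controls (0.57 ± 0.20, adjusted p = 0.0819; 0.25 with the offset), with Protandim female 1 inside the control range.

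**Figure D2:**
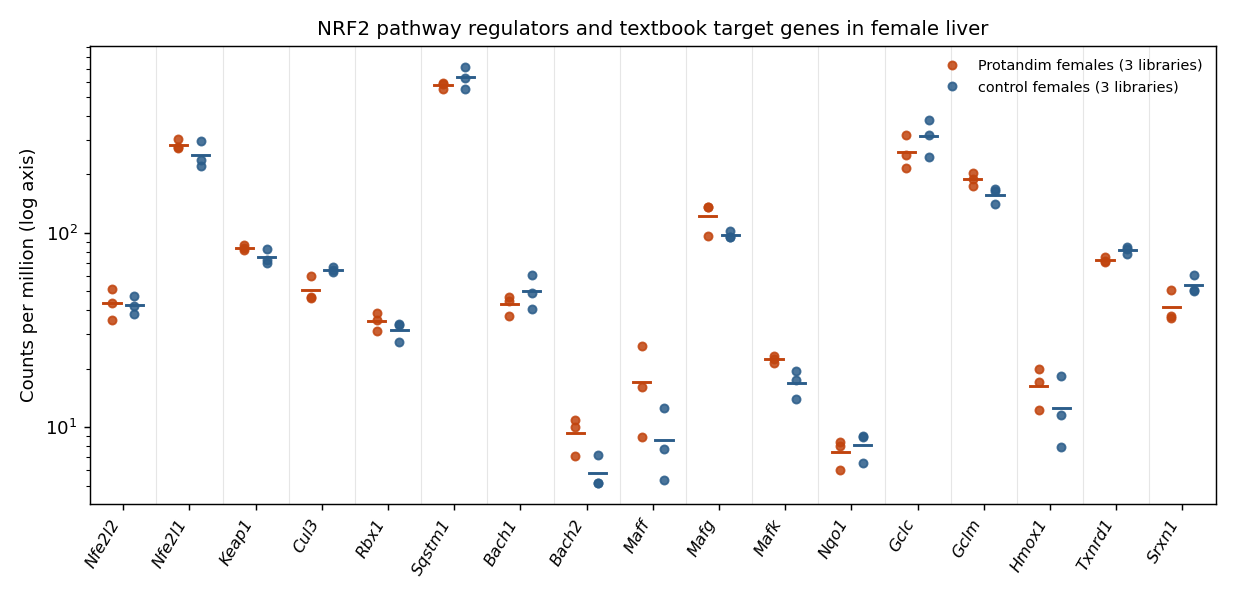
CPM on a log axis for 11 NRF2 regulators and 6 textbook target genes (horizontal axis), with 1 point per library and a bar at the group mean, Protandim females left of control females. The groups overlap for Nfe2l2, Keap1 and Nqo1, while Cul3 is lower in Protandim females and Gclm and Txnrd1 are separated in opposite directions.

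The antioxidant response element core TGACNNNGC, searched on both strands in the 250 bases before each gene's start (RefSeq, GRCm38.p6; N is any base), was found for 12 of 51 NRF2 target genes with a window (23.5%), beside 11.5% of all 27025 genes with a window. This is a property of the gene list and describes no binding in these livers.

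The clock genes included Ciart, whose difference was the widest of the 24 genes named by size. The promoters of 4 of them, chosen after their values were seen, are shown as examples that hold the letters that clock factors bind. Capitals mark the E-box CACGTG, bound by CLOCK and BMAL1, and the D-box TTATGNAA, bound by DBP, TEF and HLF, searched on both strands. The sequences are from RefSeq (GRCm38.p6), cover 250 bases up to the gene start and run 5′ to 3′ on the gene's strand: Ciart at chr3:95882229-95882478 (minus), Per1 at chr11:69098699-69098948 (plus), Tef at chr15:81802423-81802672 (plus) and Per3 at chr4:151044666-151044915 (minus).
Ciart: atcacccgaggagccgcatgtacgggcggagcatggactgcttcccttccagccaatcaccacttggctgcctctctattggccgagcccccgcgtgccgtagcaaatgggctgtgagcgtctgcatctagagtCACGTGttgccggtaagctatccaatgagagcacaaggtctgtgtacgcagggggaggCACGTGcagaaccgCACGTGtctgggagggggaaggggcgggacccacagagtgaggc
Per1: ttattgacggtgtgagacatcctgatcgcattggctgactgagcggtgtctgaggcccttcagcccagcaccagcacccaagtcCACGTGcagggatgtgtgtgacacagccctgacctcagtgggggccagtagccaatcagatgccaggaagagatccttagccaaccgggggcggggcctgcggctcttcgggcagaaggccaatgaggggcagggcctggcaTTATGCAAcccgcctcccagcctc
Tef: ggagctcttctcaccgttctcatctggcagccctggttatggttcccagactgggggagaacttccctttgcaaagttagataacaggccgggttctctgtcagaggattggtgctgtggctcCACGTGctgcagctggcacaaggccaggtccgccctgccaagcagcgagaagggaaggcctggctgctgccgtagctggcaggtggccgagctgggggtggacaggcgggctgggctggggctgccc
Per3: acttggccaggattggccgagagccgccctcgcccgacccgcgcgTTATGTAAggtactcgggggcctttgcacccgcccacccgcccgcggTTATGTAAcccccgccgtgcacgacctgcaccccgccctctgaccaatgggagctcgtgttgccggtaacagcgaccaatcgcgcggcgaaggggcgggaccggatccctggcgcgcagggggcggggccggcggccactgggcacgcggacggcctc

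The E-box was found for 5 of the 15 clock genes with a window (33.3%), beside 6.86% of all genes. These 5 were Ciart, Per1, Tef, Cry1 and Bhlhe41. Ciart held 3 copies, which start 116, 58 and 44 bases before the gene start. The D-box was found for 2 of the 15, Per1 and Per3, beside 3.63% of all genes, and Per3 held 2 copies. A window without a match lacks only those letters.

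Among 18 clock genes, all tested, 3 rose and 1 fell, which is 22.2% beside 5.35% of all genes. The median difference was 0.66, beside 0.00 over all genes, and 12 of the 18 were positive. Ciart, a repressor of CLOCK and BMAL1, had 2.43, 33.5 and 12.7 CPM in Protandim females and 0.707, 1.6 and 1.70 CPM in controls. Every Protandim library was above every control, but the Protandim libraries differed widely among themselves (3.60 ± 0.99, adjusted p = 0.036). Cry2, a repressor of the same pair, had 41.9, 65.4 and 65.0 CPM in Protandim females and 30.3, 40.0 and 37.3 CPM in controls and rose (0.68 ± 0.20, adjusted p = 0.0423).

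Clock, which encodes the activator itself, fell, with 35.8, 23.4 and 19.3 CPM in Protandim females and 47.3, 47.7 and 39.9 CPM in controls (-0.78 ± 0.19, adjusted p = 0.0209). Its partner gene Arntl had 9.34, 2.82 and 5.58 CPM in Protandim females and 22.0, 13.6 and 7.78 CPM in controls (-1.29 ± 0.55, adjusted p = 0.154), with overlap. Npas2, which can replace CLOCK, had -1.11 ± 0.72 (adjusted p = 0.375). The 3 activator genes thus had lower means in Protandim females, and Clock alone of them passed.

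Dbp, a transcription factor gene driven by the clock, had 25.3, 165 and 190 CPM in Protandim females and 3.47, 27.0 and 40.4 CPM in controls (2.42 ± 0.86, adjusted p = 0.0891). Protandim female 1 lay inside the control range, and control female 1 was far below the other controls. Per1 had 47.4, 103 and 78.6 CPM in Protandim females and 26.7, 35.9 and 42.6 CPM in controls, without overlap (1.12 ± 0.38, adjusted p = 0.0749). Per3 had 11.1, 32.2 and 22.0 CPM in Protandim females and 2.70, 7.87 and 13.4 CPM in controls (1.45 ± 0.63, adjusted p = 0.161). Per2 had 0.88 ± 0.36 (adjusted p = 0.14) and Tef, like Dbp a D-box factor, 0.78 ± 0.27 (adjusted p = 0.0828). Nr1d1, the heme-binding repressor of Arntl, had -0.01 ± 0.34 (adjusted p = 0.995).

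All 4 clock calls were lost with the offset, where the list's median was 0.61, and without Protandim female 2, where it was 0.42. With RLE scaling 2 rose and 1 fell. The calls were also lost without Protandim female 3 (median 0.56), without control female 1 (0.40) and without control female 2 (0.76). Whether the animals of the groups were killed at the same clock time is not given in the sources used here, and its part in these values was not tested.

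**Figure D3:**
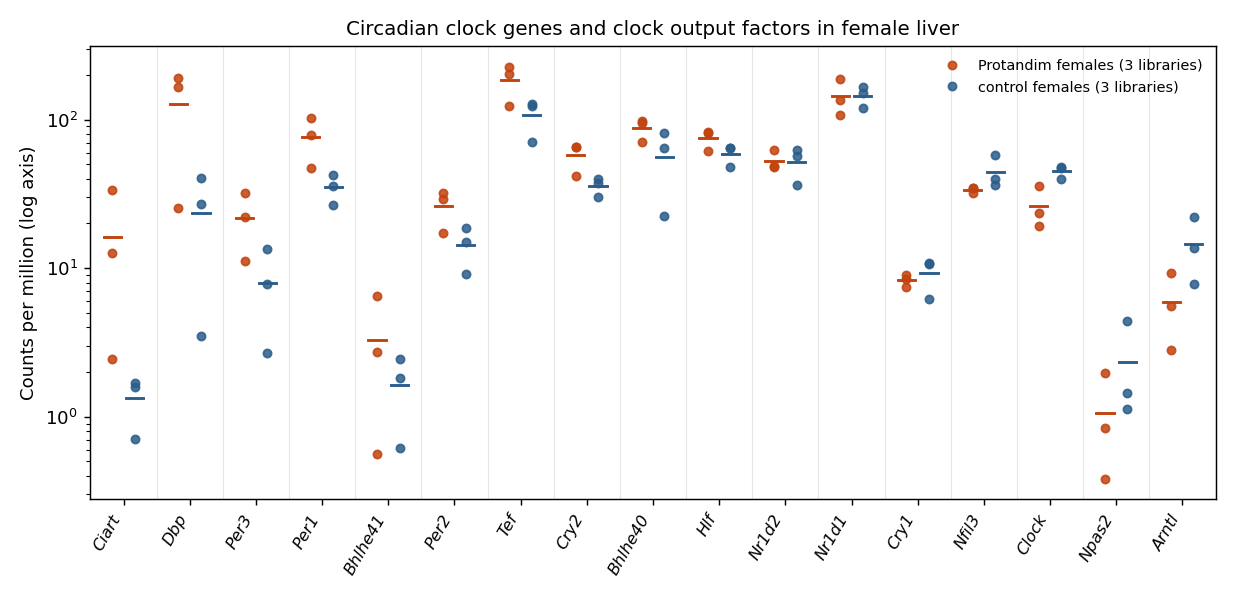
CPM on a log axis for 17 of the 18 clock genes (horizontal axis, ordered by the log2 difference), with 1 point per library and a bar at the group mean, Protandim females left of control females. Ciart, Per1 and Cry2 are higher in every Protandim library and Clock is lower in every one, while Dbp, Per3 and Arntl overlap.

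Of the genes past the threshold with the widest differences, 12 in each direction were taken, and Ciart and Thrsp led those that rose. Usp2, a deubiquitinase gene, had 14.9, 76.9 and 39.4 CPM in Protandim females and 9.89, 12.1 and 9.23 CPM in controls (2.07 ± 0.61, adjusted p = 0.0472). Alas1, the rate-limiting enzyme of heme synthesis, had 536, 1628 and 554 CPM in Protandim females and 259, 183 and 305 CPM in controls (1.86 ± 0.48, adjusted p = 0.0283). Protandim female 2 was highest for both. Kcnk5, a potassium channel gene, rose by 1.53 ± 0.35 and Cebpb, a transcription factor of the acute phase and fat cell programmes, by 1.47 ± 0.44. With the offset Cebpb, a gene of 67.2% GC content, had 0.82 (adjusted p = 0.4).

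Tk1, thymidine kinase, had 15.6, 45.3 and 36.4 CPM in Protandim females and 9.62, 16.2 and 11.8 CPM in controls (1.37 ± 0.25, adjusted p = 0.00697), with Protandim female 1 inside the control range. Car5a, mitochondrial carbonic anhydrase, had 51.6, 85.4 and 62.0 CPM in Protandim females and 20.9, 27.5 and 33.4 CPM in controls (1.28 ± 0.26, adjusted p = 0.0111). The remaining 4 were the cytochrome P450 gene Cyp2g1 (1.45 ± 0.38), Dexi (1.31 ± 0.30), the adrenergic receptor gene Adra1b (1.23 ± 0.28) and Rap1gap, an inactivator of the small GTPase RAP (1.23 ± 0.30). Of all 24, only Thrsp and Rnf125 also passed with the offset.

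The deepest falls were in a pair of sulfotransferase genes. Sult3a1 had 59.6, 78.9 and 31.9 CPM in Protandim females and 305, 244 and 496 CPM in controls (-2.62 ± 0.54, adjusted p = 0.0117; -2.44 with the offset, adjusted p = 0.0757). Sult3a2 had 10.8, 17.9 and 6.71 CPM in Protandim females and 95.8, 60.2 and 180 CPM in controls (-3.24 ± 0.84, adjusted p = 0.0337). Neither pair of groups overlapped. The 2 genes are near copies of each other, so the split of reads between them is uncertain. Sult3a1 is a female-biased liver gene. Against the same control libraries its log2 difference was -3.03 in acarbose, -2.78 in calorie-restricted, -2.22 in rapamycin and -1.82 in 17-alpha-estradiol females. Between Protandim females and the mean of those 4 groups, a contrast without the controls, it was -0.15 ± 0.41 (adjusted p = 0.851).

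Enpp2, which encodes the secreted enzyme autotaxin, had 54.1, 50.8 and 37.7 CPM in Protandim females and 88.0, 67.9 and 146 CPM in controls (-1.08 ± 0.26, adjusted p = 0.0192). Klf6, an immediate early transcription factor gene, had 8.27, 6.58 and 6.74 CPM in Protandim females and 15.5, 14.0 and 13.2 CPM in controls (-0.98 ± 0.25, adjusted p = 0.0238). Both were without overlap. Nr4a1, another immediate early gene, had 3.42, 3.03 and 1.52 CPM in Protandim females and 3.78, 49.7 and 7.71 CPM in controls (-2.93 ± 1.26, adjusted p = 0.163), with control female 2 far above the rest. The others were Cyp2d9 (-1.48 ± 0.44), the histone methyltransferase family gene Setdb2 (-1.14 ± 0.32), the lipid kinase gene Pik3c2a (-1.04 ± 0.30), the tight junction gene Cldn1 (-0.91 ± 0.25), mt-Atp8 (-1.08 ± 0.23), Zfp949 (-0.92 ± 0.22) and Fam135a (-0.87 ± 0.24).

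**Figure D4:**
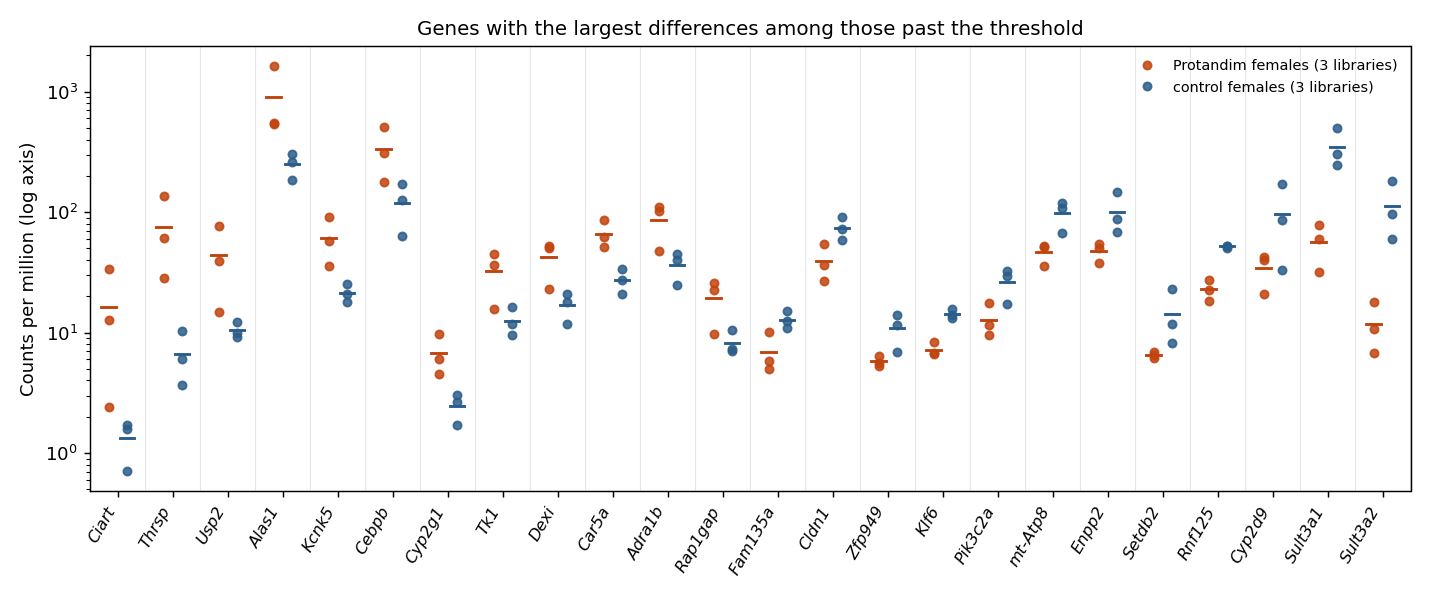
CPM on a log axis for the 12 genes per direction with the largest log2 difference among those past the threshold (horizontal axis), with 1 point per library and a bar at the group mean, Protandim females left of control females. The groups overlap for 4 of the 24 genes, which are Tk1, Rap1gap, Pik3c2a and Cyp2d9.

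Fat synthesis genes moved in both directions. Of 21 tested, 3 rose and 1 fell, or 19.0% beside 5.35% of all genes, with a median difference of 0.34. With the offset 1 rose and 0 fell, at a median of 0.18. Without Protandim female 2, control female 1 or control female 2, 0 passed, and without Protandim female 3 it was 1. Beside Thrsp, Dgat2, the last enzyme of triglyceride synthesis, had 561, 889 and 781 CPM in Protandim females and 366, 435 and 572 CPM in controls (0.70 ± 0.18, adjusted p = 0.0238). The fatty acid desaturase gene Fads1 had 803, 1191 and 1047 CPM in Protandim females and 683, 692 and 736 CPM in controls (0.53 ± 0.15, adjusted p = 0.0423). Gpam, the first enzyme of glycerolipid synthesis, fell, with 134, 113 and 109 CPM in Protandim females and 155, 182 and 165 CPM in controls (-0.49 ± 0.13, adjusted p = 0.0295). Fatty acid synthase, Fasn, had 296, 314 and 332 CPM in Protandim females and 102, 138 and 271 CPM in controls, without overlap (0.88 ± 0.45, adjusted p = 0.245). The regulator genes Srebf1 (1.14 ± 0.35, adjusted p = 0.052) and Mlxipl (0.55 ± 0.17, adjusted p = 0.0573) fell just short. Scd1 had 2129, 1144 and 995 CPM in Protandim females and 213, 1022 and 6464 CPM in controls, so that the control spread covered every Protandim library.

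Cholesterol synthesis genes shared that spread. Of 24 tested, 0 passed and 5 had an unadjusted p under 0.05 by edgeR, while DESeq2 called 0. Squalene epoxidase, Sqle, had 39.9, 42.1 and 39.7 CPM in Protandim females and 11.4, 9.98 and 78.0 CPM in controls, and Idi1 had 65.0, 59.9 and 61.3 CPM in Protandim females and 26.1, 20.7 and 129 CPM in controls. For both genes the Protandim libraries lay close together, between control females 1 and 2 on one side and control female 3 on the other. Of 32 PPAR alpha and fat oxidation genes 0 passed by edgeR, with 1 at an unadjusted p under 0.05 and 1 called by DESeq2. Of 28 genes driven by the xenobiotic receptors CAR and PXR, only Alas1 passed (3.57%, beside 5.35% of all genes); Cyp2a5 had 1.30 ± 0.48 (adjusted p = 0.0998) and Cyp3a11 -1.37 ± 0.50 (adjusted p = 0.0937).

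Genes of ribosomes and of the respiratory chain lay slightly above the controls as groups. Of 78 ribosomal protein genes, 14 rose and 0 fell (17.9%, beside 5.35% of all genes), the median difference was 0.34, and 72 were positive. Rpl23a had 101, 107 and 104 CPM in Protandim females and 70.6, 67.3 and 71.7 CPM in controls (0.58 ± 0.13, adjusted p = 0.0136). Rpl36 had 203, 251 and 234 CPM in Protandim females and 146, 134 and 137 CPM in controls (0.72 ± 0.17, adjusted p = 0.0182). Neither overlapped, as for 55 of the 78 (70.5%, beside 22.4% of all genes). Of 76 nuclear genes of oxidative phosphorylation, 15 rose and 0 fell (19.7%), at a median of 0.34; Atp5e, an ATP synthase subunit gene, had 228, 260 and 208 CPM in Protandim females and 131, 125 and 156 CPM in controls (0.76 ± 0.16, adjusted p = 0.0111).

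These are short genes, at median exon lengths of 1776 and 1779 bases beside 4151 bases for all tested genes. With the length and GC offset 0 genes of either list passed, the medians were 0.20 and 0.21, and 69 of 78 and 68 of 76 were positive. Without Protandim female 2, 0 of either list passed, at medians of 0.31 and 0.30. Many ribosomal protein genes have pseudogene copies, which makes their counts uncertain. Of 13 genes encoded by mitochondrial DNA, 3 fell and 0 rose, or 23.1% beside 5.35% of all genes. Their median was -0.39 (-0.26 with the offset, 0 called). They are shorter still, and low in GC content, at a median of 37.1% beside 50.2% for all tested genes. With the offset for GC content alone their median was -0.14, with 4 of 13 positive and 0 called. With the offset for length alone these 13 genes had a median of -0.55, with 3 called. Summed, they made up 30318, 21711 and 22534 CPM in Protandim females 1, 2 and 3 and 29781, 32035 and 30727 CPM in controls, so that Protandim female 1 lay within the controls. Without Protandim female 2 the median was -0.26 with 0 called, and without Protandim female 1 it was -0.60 with 9 called. The 3 called in the fit of all libraries were mt-Atp8, mt-Nd5 (-0.59 ± 0.18) and mt-Co2 (-0.98 ± 0.29). Their low counts are uncertain because near-identical copies lie in the nuclear genome. Of 31 proteasome genes 3 fell, Psmc6 (-0.40 ± 0.11), Psmd11 (-0.39 ± 0.12) and Psmd1 (-0.35 ± 0.09), and 0 rose (9.68%, beside 5.35% of all genes). With the offset 0 of them passed.

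Genes of other cells of the liver were tested for the same groups. In whole liver, fewer cells of a type and less RNA per cell cannot be told apart. All 14 tested Kupffer cell and macrophage genes had a positive difference, with a median of 0.33, and 1 passed (7.14%, beside 5.35% of all genes). C1qa, a complement gene of these cells, had 42.0, 70.4 and 60.2 CPM in Protandim females and 28.1, 38.8 and 25.5 CPM in controls (0.90 ± 0.18, adjusted p = 0.0099; 0.46 with the offset, adjusted p = 0.236). Its partners C1qb (0.59 ± 0.20, adjusted p = 0.0722) and C1qc (0.53 ± 0.18, adjusted p = 0.0668) and the Kupffer cell lectin gene Clec4f (0.62 ± 0.21, adjusted p = 0.0707) were higher in every Protandim library and missed the threshold. The 14 genes summed to 376.0 to 498.2 CPM in Protandim females and 226.4 to 393.7 CPM in controls, with overlap. With RLE scaling 14 were positive, with the offset 12, and without Protandim female 2 also 12, at a median of 0.20. Without control female 3 it was 10, at a median of 0.14, and 9 with the offset as well, at a median of 0.07. Without control female 2 the median was 0.56. Against the same control females this list's median was 0.60 in acarbose, 0.66 in estradiol, 0.15 in rapamycin and -0.05 in calorie-restricted females. In Protandim males against control males all 14 were positive, at a median of 0.35. Between Protandim females and the mean of the other treated female groups, a contrast without the controls, the median was 0.02. The shift was thus not particular to Protandim females. Of 25 interferon-stimulated genes 22 were positive, at a median of 0.63, but 0 passed and edgeR put 3 at an unadjusted p under 0.05, while DESeq2 called 1. Isg15 had 13.5, 6.09 and 3.88 CPM in Protandim females and 2.24, 3.01 and 7.53 CPM in controls, and Protandim female 1 and control female 3 were the high libraries of their groups. Of the lymphocyte and bile duct lists 0 genes passed by edgeR, 0 lay at an unadjusted p under 0.05, and 0 were called by DESeq2. Of 12 endothelial and 12 stellate cell genes 0 passed, edgeR put 2 of each at an unadjusted p under 0.05, and 0 endothelial and 1 stellate gene passed by DESeq2.

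Sex-biased liver genes were tested as 2 lists of 16. Of the female-biased genes 1 fell, Sult3a1, and 0 rose (6.25%, beside 5.35% of all genes). A1bg had 605, 373 and 488 CPM in Protandim females and 57.4, 29.0 and 211 CPM in controls, without overlap (2.30 ± 0.87, adjusted p = 0.109). Cux2, the female-specific repressor of male-biased genes, had 52.1, 90.7 and 30.3 CPM in Protandim females and 10.5, 6.05 and 17.6 CPM in controls (2.34 ± 0.77, adjusted p = 0.0684). For both genes every Protandim library was above every control, with a large SE. Of the male-biased genes 3 fell and 0 rose, or 18.8% beside 5.35% of all genes: Cyp2d9, C8b (-0.78 ± 0.23) and Ugt2b38 (-0.65 ± 0.18). With the offset, and without Protandim female 2 or 3 or control female 1 or 2, 0 of them passed, and without control female 3 it was 1. The list's median of -0.56 was -0.98 without Protandim female 2 and -0.26 without control female 3. In the acute phase list Saa4 rose (0.66 ± 0.20) and Itih3 fell (-0.49 ± 0.15) among 23 tested (8.70%), and Apob (-0.70 ± 0.21) was the 1 of 16 hepatocyte genes to fall (6.25%).

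One globin gene separated the groups without passing, although it passed in the fit of only the 6 libraries compared. Hbb-bt had 0.0267, 0.0696 and 0.0363 CPM in Protandim females and 5.10, 8.91 and 7.78 CPM in controls (adjusted p = 0.119), while its neighbour Hbb-bs had 31.4, 67.8 and 61.6 CPM in Protandim females and 63.4, 78.9 and 76.3 CPM in controls. UM-HET3 mice differ from one another in which inbred alleles they carry, and the genotypes of these animals were not analysed here.

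The trend of the difference on transcript length, and a steeper one on GC content, ran through all expressed genes. Over 14725 genes with a length and a GC content, log2 CPM centred on the mean of the 6 libraries changed by -0.05 per doubling of length on average in Protandim females and by 0.05 in controls, a difference of -0.09 (exact two-sided permutation test over libraries, p = 0.1, the smallest that 3 against 3 libraries allow). Per 10 percentage points of GC content the difference was 0.30 (exact permutation p = 0.1). With both in 1 regression the length slope was -0.06. Across genes the difference correlated with GC content at r = 0.35 and with length at r = -0.20, a description over genes that share libraries and composition.

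Among the 36 libraries of 6 months, Protandim females 3 and 2 had the 2 highest GC slopes, 0.37 and 0.26 per 10 points, and the 2 lowest length slopes, -0.10 and -0.08. Protandim female 1 had -0.01 and -0.04, in the range of the other libraries, and the controls had GC slopes of -0.10, -0.11 and -0.09. The next highest GC slope was 0.24, in calorie-restricted female 2. The next lowest length slope was -0.06, in rapamycin female 3. In the lowest of 5 equal bins of GC content 8 genes rose and 253 fell, with a median difference of -0.25. In the highest bin 241 rose and 1 fell, at a median of 0.30. Genes that rose had a median GC content of 56.7% and a median length of 2762 bases, and genes that fell 43.3% and 6784 bases, beside 50.2% and 4151 bases for all. With the offset the medians of the lowest and highest GC bins were -0.03 and 0.02.

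Length gave the same picture with smaller values. In the bin of shortest genes 155 rose and 16 fell at a median of 0.20, and in the bin of longest genes 21 rose and 177 fell at a median of -0.19. In Protandim males against control males the length slope differed by -0.02 and the GC slope by 0.04. The sex difference of the slopes was -0.07 for length (permutation p = 0.185 over 400 regroupings within sex) and 0.26 for GC content (p = 0.19). What part the pancreas RNA of Protandim female 3 had in the trend was not tested.

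**Figure D5:**
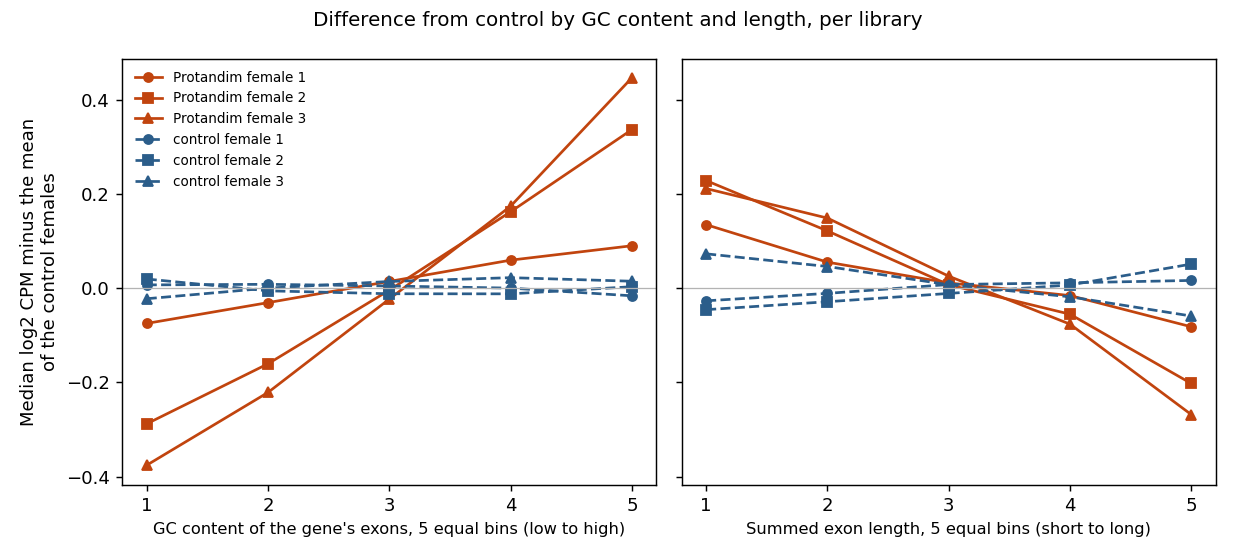
Median log2 CPM minus the mean of the control females (vertical axis) in 5 equal bins of genes, with 1 line per library. Bins are by GC content of the gene's transcripts (left panel) and by summed exon length (right panel). Protandim females 2 and 3 run from -0.29 and -0.38 in the lowest GC bin to 0.34 and 0.45 in the highest, while Protandim female 1 and the controls stay within 0.1 of zero on the GC axis.

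Protandim males on the same diet were compared with control males to see whether the response was shared. In males 2 genes passed (0.0135%), Qsox1 (0.98) and Palmd (-0.50). The difference between the sexes was tested directly, and 0 genes passed by edgeR, with 1689 (11.4%) at an unadjusted p under 0.05 and 105 by DESeq2. Thrsp came closest: it had 7.26, 6.43 and 4.88 CPM in Protandim males and 16.9, 5.92 and 35.3 CPM in control males (-1.65 ± 0.61), so the female minus male difference was 5.16 ± 0.88 (adjusted p = 0.0547). Aqp11 (1.18, adjusted p = 0.0719), Tnks1bp1 (0.86, adjusted p = 0.058) and Rnf125 (-1.55, adjusted p = 0.125) were also among the lowest p-values.

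Clock genes had mostly negative differences in males. Dbp had 17.5, 60.2 and 10.5 CPM in Protandim males and 97.9, 17.0 and 160 CPM in control males, and Ciart had a difference of -2.38 ± 0.94. The median of the 18 was -0.43, 16 of 18 had the opposite sign to females, and 14 had an unadjusted p under 0.05 for the sex difference, while 0 passed after adjustment. Control males 1 and 3 were high for Dbp and control male 2 was low, so the male controls also differed among themselves.

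The other treated females of the same age share the control libraries with Protandim females, so their values are set side by side and not correlated. By count of genes past the threshold, calorie restriction had 1146 higher and 1377 lower, acarbose 783 and 792, Protandim 408 and 385, 17-alpha-estradiol 219 and 206 and rapamycin 7 and 4. The clock list had a median difference from those controls of 0.66 in Protandim females, and of 1.11 in calorie-restricted, 0.75 in 17-alpha-estradiol, 0.45 in rapamycin and -0.15 in acarbose females. Ciart had 3.60 in Protandim females, 3.62 in 17-alpha-estradiol, 3.26 in calorie-restricted, 3.09 in rapamycin and -1.27 in acarbose females. For NRF2 targets the medians were 0.14 in Protandim and 0.30 in acarbose, 0.16 in calorie-restricted, 0.08 in rapamycin and 0.06 in 17-alpha-estradiol females. Gstm3 had 1.63 in Protandim females, against 4.68 in acarbose, 3.58 in calorie-restricted, 1.75 in 17-alpha-estradiol and 1.28 in rapamycin females.

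A contrast that leaves the controls out set Protandim females against the mean of the other 4 treated female groups. There 1919 genes passed (13.0%), 1181 higher (7.97%) and 738 lower (4.98%) in Protandim females. Gnas was 1.09 ± 0.12 higher (adjusted p = 1.54e-05), while its difference from controls in the 4 other groups ranged from -0.14 to 0.23. Ugt2b35 was lower by this contrast (-0.88 ± 0.13, adjusted p = 0.000346). The list counts of this contrast are without the offset. Of the oxidative phosphorylation list 28 of 76 were higher (36.8%, beside 7.97% of all genes). Of the mitochondrially encoded list 7 of 13 were lower, beside 4.98% of all genes. PPAR alpha and fat oxidation genes were higher in 11 of 32 cases (34.4%, beside 7.97% of all genes) and lower in 1. Against the controls 0 of these 32 passed in Protandim females, at a median of -0.05. In the 4 other groups the list's median difference from controls was negative, from -0.72 in acarbose to -0.24 in rapamycin females. This contrast thus does not show a rise of these genes over controls. Of the 18 clock genes 0 were higher and 1 lower, beside 7.97% and 4.98% of all genes, at a median of -0.00. Of the NRF2 targets 2 were higher and 2 lower of 59, beside the same 7.97% and 4.98% of all genes. Without Protandim female 2 the contrast gave 305 genes, without Protandim female 3 it gave 385, and with the offset 714.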

How the data were processed

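RNA was extracted from liver with the PureLink kit, poly(A) RNA was made into TruSeq libraries and sequenced as 100 bp read pairs, per the labels' protocols. The authors deposited raw counts of reads assigned to genes. Per the submitters' processing notes, the tools were bcl2fastq 1.8.4, Trimmomatic 0.32, STAR 2.5.2b and featureCounts 1.5, with build GRCm38 (mm10); the strand of counting is not given in the sources used here.

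Groups came from the labels. Genes were kept by filterByExpr (minimum count 10), scaled by TMM and fitted in edgeR 4.0.16 (R 4.3.3) with a robust quasi-likelihood model of 36 libraries, 1 coefficient per group. The threshold was 0.05 on p-values adjusted by the Benjamini-Hochberg method, and each SE was derived from the gene's F statistic. Log2 CPM used a prior count of 2. Lengths of merged exons and transcript sequences came from GENCODE vM21. GC content was taken over the pooled sequences of all transcripts of a gene. The offset removed a spline of 4 degrees of freedom per library. The steps were tested on simulated data. Members and lists were chosen with earlier results of these data known. Of 807 list members, 805 were matched by symbol.

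The text names, in each direction, at most 12 genes of largest difference; these passed the test, averaged log2 CPM 2 or more, lay on the same side of the control mean in every Protandim library and had no predicted or clone name; up to 4 per list by p; the NRF2 regulators and 6 textbook targets; up to 5 per direction for the sex difference; and, added after their values were seen, the genes that also passed with the offset. Other genes named with values were chosen after their values were seen. Alternatives were RLE scaling, no filter, a replicate block, smaller fits, the offset, DESeq2 1.42.0 and each library left out; those of length or GC alone, of the offset with libraries left out and of the GC slope were added after seeing the data. Replicates of a group differed well beyond counting noise. The result of 1 of the clock genes is not reported here.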

Additional observations from a re-analysis of the deposited data

How the results depend on the processing

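The count of genes that differed between Protandim and control females, 793, was 819 with RLE size factors and 793 without pancreas markers, of which 4 were tested and 0 called. It was 316 with no filter on low counts, where 27282 genes were tested, and 1561 with DESeq2. It was 10 with the offset for length and GC content, 221 for length alone and 9 for GC content alone. The count was 3 in a fit of only the 6 libraries compared, 1 in the 18 female libraries and 0 without the 6 libraries with RNA of another tissue. These last 3 settings use fewer libraries. The 6 libraries left out each held over 1000 counts of another tissue's marker genes. They include Protandim female 3, with 2311 exocrine pancreas counts, and calorie-restricted female 2, with 29011 skeletal muscle counts. With 1 library left out it ranged from 0 to 2127, and with the offset as well from 0 to 96 (24 without control female 3). By the settings that gave 0, edgeR found 990 to 2353 genes at an unadjusted p under 0.05. The replicate numbers are not stated to pair mice. Deviations of Protandim and control libraries of the same number correlated at 0.03, -0.03 and -0.06. Of the 3 Protandim libraries, 1 correlated best with the control of its number. So few values cannot decide whether the numbers mark pairs. The replicate block gave 1113 genes.

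For the sex difference, 0 genes became 105 with DESeq2, 3 with the replicate block and 0 to 255 with 1 library left out. For the contrast with the other treated females, 1919 became 1239 with no filter, 714 with the offset, 208 without the libraries with RNA of another tissue, 1002 in the 18 female libraries and 305 to 2342 with 1 library left out. The length slope, -0.09, was -0.06 to -0.14 under its alternatives and -0.11 to -0.08 with 1 library left out; on GC content it was 0.30 per 10 points. Cul3, -0.34, was 0.074 with the offset and without Protandim female 1. Where not stated, the cause was not tested. With 3 libraries per group, the spread between animals limits these results.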
